A study of Mus musculus with 60 samples.

Results

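The non-coding RNA of whole kidney was measured in libraries of total RNA depleted of ribosomal RNA, from mice deficient for Ftsj1 and from wild-type mice. All named features of the 4 kidney tables of these libraries were taken: 10040 long non-coding RNAs (lncRNAs), 1482 small nucleolar RNAs (snoRNAs), 1380 small nuclear RNAs (snRNAs) and 5537 transfer RNA (tRNA) features, 18439 in all. The series holds 368645 entries in 25 tables. The groups were 3 male Ftsj1_DF mice and 3 male WT mice, all aged 4 months, untreated and fed freely. Per the labels, 4 of the 6 mice were brothers of 1 litter and the other 2 were brothers of another, so that each litter held both genotypes, and every mouse gave 5 organs (brain, heart, kidney, liver and spleen) and 2 kinds of library. The sources used here give neither the mouse strain nor how the Ftsj1 allele was altered. The question in the study's title is how loss of Ftsj1 bears on networks of non-coding RNA in mouse organs.

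Ftsj1 is an X-linked methyltransferase that places methyl groups on ribose in the anticodon loop of certain tRNAs. LncRNAs are transcripts with no long reading frame that act in the nucleus or cytoplasm, for example on chromatin, on neighbouring genes or as partners of microRNAs. SnoRNAs guide chemical modification and cleavage of ribosomal RNA, snRNAs form the core of the spliceosome, and tRNAs deliver amino acids to the ribosome. The kidney consists largely of tubules lined by transporting epithelial cells.

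Ftsj1 itself was read in the poly-A libraries of the same kidneys. It had 707, 537 and 795 normalised reads in the 3 Ftsj1_DF libraries, against 4924, 4591 and 4908 in the 3 WT libraries, so that the groups lay far apart. In the authors' deposited table its log2 fold change was -2.84, or 14% of the WT level. All 12 kidney markers used to check the tissue, from podocyte genes such as Nphs1 to tubule genes such as Umod and Aqp2, were present in that table at mean levels of 8581 to 5351370, and 0 of them passed the test between genotypes.

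A level below is the mean of normalised reads over the 6 libraries, and a log2 fold change is Ftsj1_DF over WT with its standard error (SE). A feature is called risen or fallen where the adjusted p of the authors' DESeq2 test was under 0.05. Values per library are whole reads divided by the library's size factor, worked out from the deposited means. They are told apart only by genotype and depth, the deepest first, and are tied to no mouse. Size factors in the lncRNA table were 1.02, 0.968 and 0.825 on the Ftsj1_DF side and 1.72, 1.18 and 0.629 on the WT side, a span of 2.73 times. Over 4553 lncRNAs at levels of 10 to 900, these libraries held 867279, 802220 and 687110 reads on the Ftsj1_DF side, against 1432604, 993170 and 524581 on the WT side.

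In kidney, 15 lncRNAs passed the test, 1 of which rose and 14 of which fell, while no snoRNA, snRNA or tRNA feature passed. Cdr1 and Cdr1os, the locus of a circular RNA that binds miR-7, fell to 38.3% and 38.7% of WT. Gm49692, Gm30551 and Gm15895 fell further, to 24.3%, 28% and 35.9% of WT. The 15 made up 0.41% of the 3661 lncRNAs that had an adjusted p, with 0.0273% risen and 0.382% fallen, and their mean levels ran from 252 to 17548 normalised reads. Of the 10040 lncRNAs, 940 were listed at 0, 9100 had a p and 6205 had a level of 10 or more. The median log2 fold change of these 6205 was 0.01 and their median SE 0.24. At an unadjusted p under 0.05 there were 272 lncRNAs, or 2.99% of those with a p, and 237 of the 6205, or 3.82%.

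**Figure D1:**
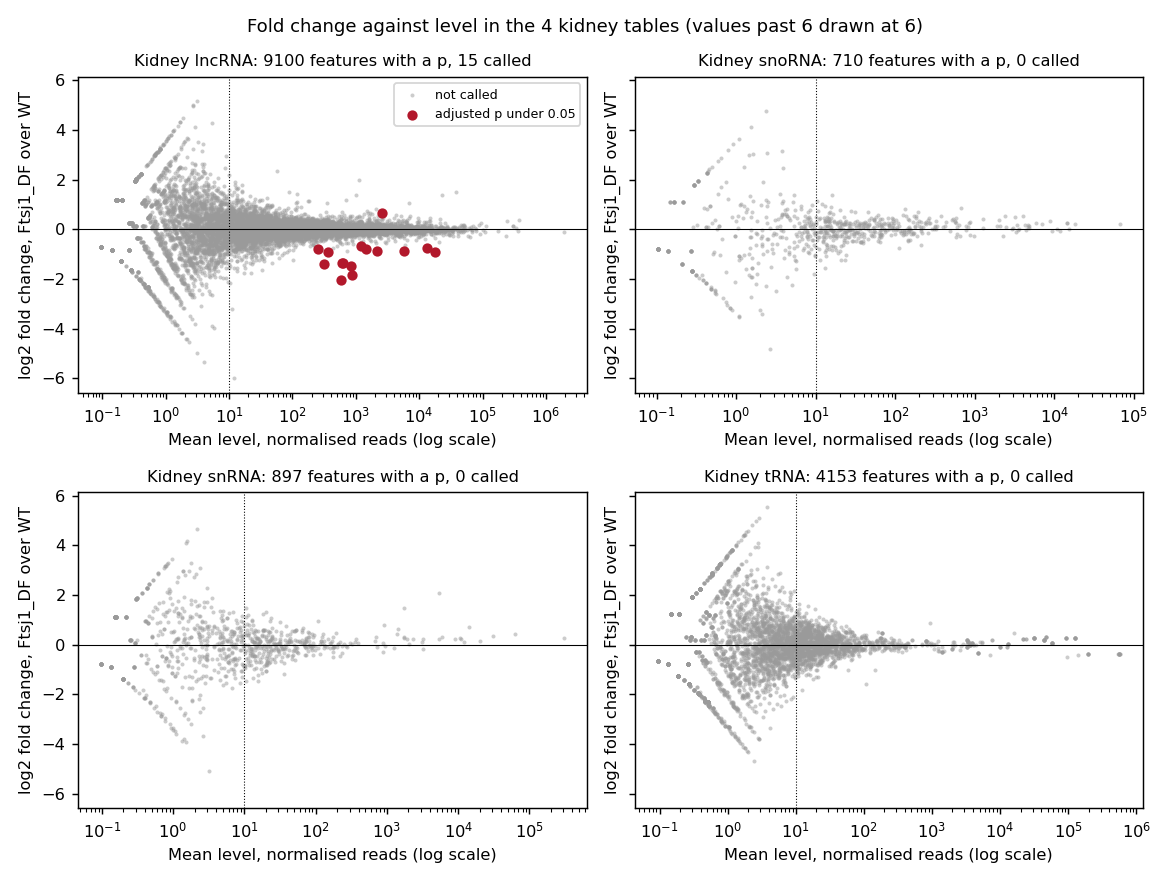
Log2 fold change of Ftsj1_DF over WT (vertical axis) against mean level in normalised reads (horizontal axis, log scale) for every feature with a p in the 4 kidney tables; red points have an adjusted p under 0.05, and the dotted line marks a level of 10. The 15 red points are lncRNAs with levels between 252 and 17548, and 14 of them lie below 0.

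Cdr1 and Cdr1os lie on opposite strands of 1 locus on the X chromosome. The Cdr1os strand gives rise to a circular RNA, known in brain as Cdr1as, that carries many sites for the microRNA miR-7. The mature miR-7a is shown with bases 2 to 8, its seed, in capitals, because the locus repeats the same letters. Below it stand 2 stretches of the strand opposite to Cdr1, with the letters GTCTTCC, which pair with that seed, in capitals. The microRNA is from RefSeq (GRCm38.p6, chr7:78888295-78888317, plus strand), and the windows are from GRCm38 at chrX:61185530-61185555 and chrX:61184774-61184799, plus strand.
mmu-miR-7a-5p: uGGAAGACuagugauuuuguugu
Cdr1 opposite strand, window 1: cagaaacccatGTCTTCCtgaaaatc
Cdr1 opposite strand, window 2: cgaaaatccaaGTCTTCCcagaagtc

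The annotated Cdr1 transcript of 1554 bases holds the letters GGAAGAC 79 times, covering 35.6% of it, so that its opposite strand holds GTCTTCC as often. Among 2996 genes with a transcript of 1400 to 1700 bases, 23.8% held GGAAGAC at least once on the transcript's strand, and no other gene held it more than 7 times. These letters are a description of the sequence and not a measure of miR-7 binding.

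Cdr1os had 273, 377 and 354 normalised reads in the 3 Ftsj1_DF libraries, against 864, 863 and 864 in the 3 WT libraries. The groups did not overlap, and the 3 WT values were nearly equal. In the authors' deposited table its log2 fold change was -1.37 ± 0.17 (SE; adjusted p = 1.82e-12). Cdr1 had 139, 200 and 183 normalised reads in Ftsj1_DF libraries and 443, 434 and 491 in WT libraries, again without overlap. The authors' deposited table gave Cdr1 a log2 fold change of -1.39 ± 0.20 (adjusted p = 1.19e-09).

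Gm53013, which the annotations used here do not place, followed the same pattern. It had 293, 400 and 376 normalised reads in Ftsj1_DF libraries, against 886, 905 and 901 in WT libraries, each slightly above the value of Cdr1os in the same library. The log2 fold change of Gm53013 in the authors' deposited table was -1.33 ± 0.17 (adjusted p = 3.3e-12). The sources used here do not say whether the counting was by strand or whether these 3 features share reads, so they are not 3 independent results.

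Cdr1os is known for its high level in neurons, and 4 of 5 neuronal markers were measured in the poly-A libraries of these kidneys, with Nefl listed at 0. Summed over these 4, the Ftsj1_DF poly-A libraries had 411 to 560 normalised reads and the WT poly-A libraries 465 to 831, which overlap. Stmn2, at 332 of a summed level of 549, weighed most in this sum, with a log2 fold change of 0.08 ± 0.19 in the authors' deposited poly-A table. Syt1 had one of -0.69 ± 0.30 (unadjusted p = 0.0215), Tubb3 -0.53 ± 0.59 and Snap25 -2.11 ± 0.95 (unadjusted p = 0.0262) there. The median of the 4 was -0.61. Snap25 had 8.60, 12.5 and 7.47 normalised reads in Ftsj1_DF poly-A libraries, against 8.10, 113 and 4.67 in WT poly-A libraries, 1 of which stood apart. That WT library, which also had the sum of 831, held nearly all reads of the adrenal marker Cyp11a1 (6739 normalised reads). None of the 4 neuronal markers passed the test, and their part in the change of Cdr1os was not tested. Of 6 lncRNAs listed for neurons or circular RNA loci, all had a level of 10 or more, 3 had an adjusted p and Cdr1os alone was called. Miat, a nuclear lncRNA of neurons, had 60.9, 104 and 43.7 normalised reads in Ftsj1_DF libraries and 83.7, 63.8 and 87.4 in WT libraries, which overlap. In the authors' deposited table Pantr1 had a log2 fold change of -0.09 ± 0.13 and Sox2ot one of -0.42 ± 0.24 (unadjusted p = 0.0749). Outside that list, Mir124-2hg, a host of the neuronal microRNA miR-124, had 1.963, 2.07 and 2.43 normalised reads in Ftsj1_DF libraries. In WT libraries it had 4.07, 18.7 and 38.1, and it was not called (unadjusted p = 0.000831).

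Gm30551, an intergenic lncRNA, had the smallest adjusted p of the kidney lncRNAs. It had 376, 423 and 351 normalised reads in Ftsj1_DF libraries, against 1308, 1652 and 1149 in WT libraries. Every WT value was more than any Ftsj1_DF value, and the log2 fold change in the authors' deposited table was -1.84 ± 0.18 (adjusted p = 1.42e-21). Gm49692 had the strongest decrease among the 15. It had 206, 168 and 317 normalised reads in Ftsj1_DF libraries and 1147, 817 and 874 in WT libraries, and its log2 fold change in the authors' deposited table was -2.04 ± 0.22 (adjusted p = 1.62e-16).

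Fewer cells of a type that expresses such an RNA and less RNA per cell cannot be told apart in whole kidney. The sources used here give no role for Gm30551 or Gm49692.

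Gm28905, also intergenic, was lower as well. It had 1556, 1420 and 1648 normalised reads in Ftsj1_DF libraries and 3049, 2972 and 2499 in WT libraries, with no overlap. The authors' deposited table gave it a log2 fold change of -0.88 ± 0.15 (adjusted p = 7.33e-07). Gm45030 had 927, 1047 and 814 normalised reads in Ftsj1_DF libraries, against 1550, 1571 and 1349 in WT libraries. Gm47078 had 197, 179 and 182 in Ftsj1_DF libraries, against 339, 337 and 281 in WT libraries. The groups were separate for both, with log2 fold changes, per the authors' deposited table, of -0.68 ± 0.16 for Gm45030 (adjusted p = 0.00389) and -0.78 ± 0.19 for Gm47078 (adjusted p = 0.0128).

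A pair of the fallen features are annotated as transcribed pseudogenes in GENCODE. AW822252 had 1086, 1123 and 953 normalised reads in Ftsj1_DF libraries, against 1631, 2202 and 1560 in WT libraries. These do not overlap, and the log2 fold change in the authors' deposited table was -0.77 ± 0.17 (adjusted p = 0.00202). Alms1-ps2, named as a pseudogene of the cilium gene Alms1, had a level of 5715, at which values per library were not worked out. For Alms1-ps2 the log2 fold change in the authors' deposited table was -0.86 ± 0.23, and its adjusted p of 0.0343 was the largest of the 15.

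**Figure D2:**
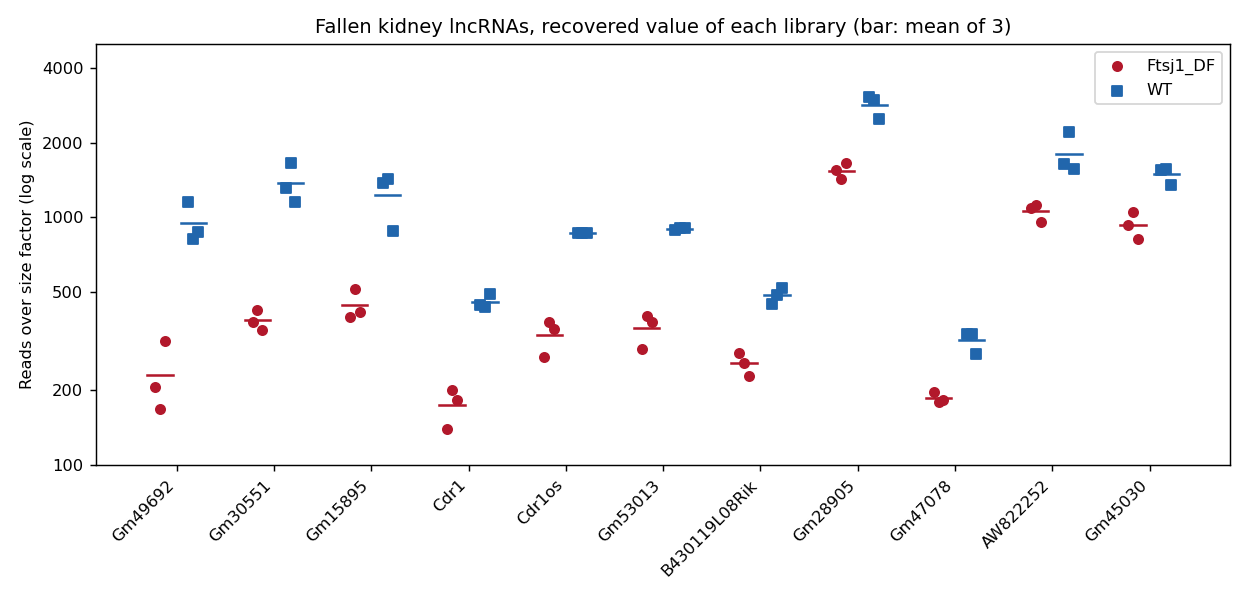
Normalised reads (vertical axis, log scale) of each library for the 11 fallen kidney lncRNAs whose values per library were worked out, with 3 Ftsj1_DF libraries (red circles) left of 3 WT libraries (blue squares) and a bar at the mean of 3. The groups do not overlap for any of them, and the Ftsj1_DF libraries lie below in each.

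Values per library were worked out for 12 of the 15 called lncRNAs, and in all 12 the Ftsj1_DF and WT libraries did not overlap. The 12 were called on these same libraries, so that their separation is no added support. Only 8 of the 12 lie at levels up to 900. Among the 4553 lncRNAs at levels of 10 to 900, 483 or 10.6% did not overlap. For 248 of these, or 5.45%, the Ftsj1_DF libraries were lower.

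The start regions of Gm30551, which had the smallest adjusted p among those that fell, and of Gm15895, which after Gm30551 fell most among those with a promoter at hand, are shown to set them side by side. Both run from 250 bases before to 50 bases after the annotated start (RefSeq, GRCm38.p6), Gm30551 at chr13:103707584-103707883 on the minus strand and Gm15895 at chr8:110804946-110805245 on the plus strand. Capitals mark the letters ATTGG, the motif CCAAT read on the other strand, which occur once in Gm15895 and not in Gm30551.
Gm30551: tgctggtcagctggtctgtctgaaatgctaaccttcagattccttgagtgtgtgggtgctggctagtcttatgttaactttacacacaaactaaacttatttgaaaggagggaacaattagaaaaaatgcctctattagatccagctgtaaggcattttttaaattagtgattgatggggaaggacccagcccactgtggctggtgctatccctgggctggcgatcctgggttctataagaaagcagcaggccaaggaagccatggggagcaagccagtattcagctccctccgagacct
Gm15895: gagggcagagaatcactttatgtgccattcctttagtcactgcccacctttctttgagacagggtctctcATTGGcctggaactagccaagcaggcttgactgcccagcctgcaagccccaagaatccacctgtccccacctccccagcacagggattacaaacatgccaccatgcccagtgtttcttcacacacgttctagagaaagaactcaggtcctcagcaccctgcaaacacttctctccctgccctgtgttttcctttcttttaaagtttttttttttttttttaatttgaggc

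Promoters were at hand for 7 of the 15 called lncRNAs. The motif TATAAA, searched on both strands as were the others, was found in 0 of the 7, and it occurs in 13.6% of all 32851 promoters of that length. CCAAT was found in 2 of the 7 and in 37.4% of all promoters. The motif GGGCGG was found in 2 of the 7 and in 35.7% of all promoters. None of the 3 motifs is contained in another, on either strand.

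Several fallen lncRNAs lie across a coding gene on the opposite strand. Neighbours were looked up in GENCODE and RefSeq annotation of GRCm38 after the values of the lncRNAs had been seen, and 14 of the 15 could be placed. 4 of them overlapped a coding gene on the other strand: Gm15895 with Il34, B430119L08Rik with Serpina1c, Gm10069 with Pzp and Gm20400 with Slco1a6. All 4 of these coding genes fell in the poly-A libraries of the same kidneys. Of 26 tested coding neighbours of the called lncRNAs, 7 or 26.9% were called in the poly-A table, against 0.987% of all its tested features, 0.339% risen and 0.648% fallen. These shares are not alike, since that table holds features of every kind and the neighbours are named coding genes only. The 7 stand beside or across from 5 of the called lncRNAs, so they are not 7 separate loci. Because the strand setting of the counting is not given, reads of a lncRNA and of the gene across from it cannot be told apart.

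Gm15895 overlaps Il34, which encodes a cytokine ligand of the Csf1 receptor. Gm15895 had 395, 514 and 415 normalised reads in Ftsj1_DF libraries, against 1377, 1425 and 877 in WT libraries. The groups were separate, and its log2 fold change in the authors' deposited table was -1.48 ± 0.20 (adjusted p = 1.34e-10). Il34 had one of -0.88 ± 0.13 in the authors' deposited poly-A table (adjusted p = 1.46e-08). Sf3b3, the next coding gene on 1 side, had one of -0.13 ± 0.08 in the authors' deposited poly-A table and was not called.

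B430119L08Rik lies within the Serpina1 family, whose members encode alpha-1-antitrypsin, a protease inhibitor made mainly in liver. It had 283, 257 and 229 normalised reads in Ftsj1_DF libraries and 446, 485 and 518 in WT libraries, with a log2 fold change in the authors' deposited table of -0.91 ± 0.18 (adjusted p = 0.00014). Serpina1c had -0.68 ± 0.11 (adjusted p = 9.58e-08) and Serpina1a -1.08 ± 0.16 (adjusted p = 1.26e-08) in the authors' deposited poly-A table.

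Gm10069 had the highest level of the 15, at 17548 normalised reads. Its log2 fold change in the authors' deposited table was -0.89 ± 0.14 (adjusted p = 2.99e-07), while Pzp, which encodes a broad protease inhibitor of the alpha-2-macroglobulin family, had one of -1.08 ± 0.13 in the authors' deposited poly-A table (adjusted p = 2.26e-13). Fkbp4, the coding gene next to it, had one of 0.09 ± 0.11 there and was not called.

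Gm20400, at a level of 13402, fell by 0.73 ± 0.17 on the log2 scale in the authors' deposited table (adjusted p = 0.00389). In the authors' deposited poly-A table the organic anion transporter gene Slco1a6 had a log2 fold change of -0.36 ± 0.09 (adjusted p = 0.00903), and its neighbour Slco1a1 one of -1.37 ± 0.28 (adjusted p = 0.000379). Alms1-ps2 overlaps no coding gene and lies between Nat8f3 and Nat8f6, of the N-acetyltransferase family. Nat8f6 had a log2 fold change of -0.65 ± 0.12 in the authors' deposited poly-A table (adjusted p = 7.68e-06), and Nat8f3 one of -0.39 ± 0.12 (adjusted p = 0.0986).

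B430119L08Rik and Gm10069 had far higher levels in liver than in kidney, 187164 and 549130 normalised reads, although each organ has its own size factors. Of 6 hepatocyte markers, all measured in the kidney poly-A libraries at levels of 41.0 to 12068, Ttr and Serpina1a fell and 4 were not called. Their median log2 fold change in the authors' deposited poly-A table was -0.50, with a range of -1.14 to 0.87, and their part in the change of these lncRNAs was not tested.

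The intergenic lncRNAs had no called neighbour. For Gm30551, the neighbours Srek1 and Mast4 had log2 fold changes of 0.03 ± 0.12 and -0.02 ± 0.10 per the authors' deposited poly-A table. For Gm28905, Stxbp5 had one of -0.11 ± 0.08 in the authors' deposited poly-A table, and for Gm47078, Arid5b had one of 0.06 ± 0.10. Nrip1, a nuclear receptor corepressor beside Gm45030, had one of 0.29 ± 0.09 in the authors' deposited poly-A table (adjusted p = 0.0675).

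None of the best known lncRNAs was called, but with 0.41% of all tested lncRNAs called, a count of 0 in lists of this size is near the background. Of 11 nuclear and architectural lncRNAs, 9 of which had an adjusted p, 0 were called and their median log2 fold change was -0.07, against 0.01 over all lncRNAs at a level of 10 or more. Malat1, a component of nuclear speckles and the most abundant lncRNA of the table, had a log2 fold change in the authors' deposited table of -0.09 ± 0.15. Neat1, the scaffold of paraspeckles, had one of -0.07 ± 0.16 in the authors' deposited table, and Norad, which binds Pumilio proteins, one of -0.09 ± 0.13. Firre, an X-linked lncRNA of nuclear organisation, had one of -0.04 ± 0.14 in the authors' deposited table.

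Of 9 measured lncRNAs of imprinted loci, 6 of which had an adjusted p, 0 were called, with a median log2 fold change of -0.00315. Kcnq1ot1 and Airn, which silence their imprinted domains, had log2 fold changes of 0.02 ± 0.18 and -0.13 ± 0.13 per the authors' deposited table. Of 19 hosts of snoRNAs, 18 of which had an adjusted p, 0 were called and the median was 0.09, with 14 values above 0. Snhg16 and Snhg3 had log2 fold changes of 0.11 ± 0.14 and 0.34 ± 0.20 per the authors' deposited table.

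Of 17 hosts of microRNAs, 12 of which had an adjusted p, 0 were called, with a median of -0.05. Mir99ahg had a log2 fold change of -0.05 ± 0.20 and Dleu2 one of -0.21 ± 0.16 in the authors' deposited table. Of 9 lncRNAs of Hox clusters, 8 of which had an adjusted p, 0 were called. In this list 8 lay above 0, with a median of 0.07. Hoxd3os1 and Hoxb3os, both at high level in kidney, had log2 fold changes of 0.10 ± 0.15 and 0.06 ± 0.13 per the authors' deposited table. Of 12 lncRNAs studied in kidney disease models, 9 of which had an adjusted p, 0 were called and the median was -0.08. They include Pvt1, with 0.03 ± 0.13 in the authors' deposited table.

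By name, 9 of 2468 lncRNAs with Gm numbers and an adjusted p were called, all fallen, a share of 0.365% beside 0.41% over all lncRNAs. Of those with Rik names, 1 of 842 fell, or 0.119%, and of those named as opposite-strand transcripts 1 of 184 fell, or 0.543%. Among 167 with other symbols, 1 rose and 3 fell, or 2.4% in all. Other abundant lncRNAs included Rmrp, the RNA of the nuclease RNase MRP, with a level of 302392 and a log2 fold change of 0.14 ± 0.19 in the authors' deposited table. Gm17035, at 375315, had a log2 fold change of 0.39 ± 0.18 in the authors' deposited table with an unadjusted p of 0.0251, which did not pass adjustment.

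No snoRNA was called in kidney, 0% of the 710 with a p, and the smallest adjusted p was 1. At an unadjusted p under 0.05 there were 10 snoRNAs, 1.41% of those tested, and 6 of these had a level of 10 or more, 1.57% of such snoRNAs. The median log2 fold change of the 383 snoRNAs at a level of 10 or more was 0.05, and their median SE was 0.43, against 0.24 for the lncRNAs. The 8 most abundant snoRNAs made up 55.5% of the summed level. The highest of them, Gm22988, had a level of 66434 and a log2 fold change of 0.20 ± 0.28 in the authors' deposited table.

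Box C/D snoRNAs, which guide ribose methylation, had 80 members by name at a level of 10 or more, with a median log2 fold change of 0.10. Snord17 and Snord15b, both abundant, had log2 fold changes of 0.24 ± 0.26 and 0.25 ± 0.28 per the authors' deposited table. Box H/ACA snoRNAs, which guide pseudouridylation, had 39 members with a median of 0.14, and Snora74a had 0.00 ± 0.22 in the authors' deposited table. The 261 snoRNAs with Gm numbers had a median of -0.00037. The 4 snoRNAs hosted in Rpl13a had a median of 0.28, and the 3 measured ones of Gas5 had a median of -0.04. None of these lists held a called member. Of the Rpl13a ones, Snord33 had 371, 147 and 136 normalised reads in Ftsj1_DF libraries, against 126, 171 and 153 in WT libraries, and Snord32a had 958, 431 and 624 in Ftsj1_DF libraries, against 478.5, 556 and 439 in WT libraries. Both overlap, and the deepest Ftsj1_DF library stood apart in both, with the other 2 Ftsj1_DF values of Snord33 within the range of the WT values.

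Snord14e, a U14 snoRNA needed for early cleavage of the precursor of 18S ribosomal RNA, had the smallest unadjusted p of the snoRNAs at a level of 10 or more. Its sequence from GRCm38 (chr9:40804748-40804837, plus strand) is shown with box C (TGATGA) and box D (CTGA), by which box C/D snoRNAs are recognised, in capitals.
Snord14e: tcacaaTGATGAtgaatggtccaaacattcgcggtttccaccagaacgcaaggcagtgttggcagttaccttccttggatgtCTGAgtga

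Snord14e had 167, 195 and 139 normalised reads in Ftsj1_DF libraries, against 272, 291 and 215 in WT libraries. The groups did not overlap, as was so for 22 of the 349 snoRNAs at levels of 10 to 900, or 6.3%, with the Ftsj1_DF libraries lower for 12, or 3.44%. In the authors' deposited table its log2 fold change was -0.64 ± 0.28, with an unadjusted p of 0.0227 and an adjusted p of 1. The other pre-rRNA cleavage snoRNAs did not share its direction: of the 10 measured, Snord14e among them, 9 lay above 0. The median of the 10 was 0.25 and the highest value 0.88. Of the 10, 2 had an unadjusted p under 0.05, Snord14e and another that lay above 0. Snord22 had a log2 fold change of 0.52 ± 0.33, Snora73b one of 0.32 ± 0.26 and Snord3a, a U3 snoRNA, one of 0.10 ± 0.32 in the authors' deposited table.

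The names of snoRNAs and their sequences were set side by side, since most features of that table carry only a Gm number. Both boxes, TGATGA within the first 25 bases and CTGA within the last 25, were found in 45 of 72 Snord-named snoRNAs with a sequence, or 62.5%, and in 37 of 234 with Gm numbers, or 15.8%. The ACA tail of the other class was found in 90 of those 234, or 38.5%, and in 0 of the 72. Medians of log2 fold change were 0.07 for the Snord-named ones with both boxes, -0.03 for the Gm-numbered ones with both boxes and 0.07 for the Gm-numbered ones with the tail.

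No snRNA was called in kidney either, 0% of the 897 with a p, with a smallest adjusted p of 0.992. At an unadjusted p under 0.05 there were 4 snRNAs, 0.446% of those tested, and 2 of these had a level of 10 or more, 0.585% of such snRNAs. The median log2 fold change of the 342 at a level of 10 or more was 0.03, and that of the 24 at a level of 1000 or more was 0.26. The table was dominated by few features, the 8 highest of which held 86.1% of the summed level. Gm22513 was the highest, with a level of 300790 and a log2 fold change of 0.26 ± 0.29 in the authors' deposited table.

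Gm22513 differs from Rnu1a1, a named U1 gene, at 1 base, and both sequences are shown for this likeness. Their levels were 300790 and 1255, and the sources used here do not say how reads that match both were counted. They are from GRCm38, Rnu1a1 at chr11:87422867-87423030 and Gm22513 at chr12:54696782-54696945, both on the plus strand. Capitals mark ACTTACCT, the stretch by which U1 pairs with the start of an intron, and in Gm22513 also the substitution T60C, counted from 1 at the 5′ end.
Rnu1a1: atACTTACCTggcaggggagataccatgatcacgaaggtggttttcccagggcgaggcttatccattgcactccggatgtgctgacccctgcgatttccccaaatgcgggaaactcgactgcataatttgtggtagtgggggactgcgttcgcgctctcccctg
Gm22513: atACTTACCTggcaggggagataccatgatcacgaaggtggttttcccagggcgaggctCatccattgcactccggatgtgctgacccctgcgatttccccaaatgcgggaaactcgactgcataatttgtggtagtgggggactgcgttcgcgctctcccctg

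Rnu1a1 had 1769, 775 and 1053 normalised reads in Ftsj1_DF libraries and 1460, 1570 and 902 in WT libraries, which overlap. Its log2 fold change in the authors' deposited table was -0.13 ± 0.36. Of the snRNAs at a level of 10 or more, 19 were most like Rnu1a1, at 90% identity or more, with a summed level of 320130 and a median log2 fold change of 0.29. Gm26244, a U1-like feature with 99.4% identity to it, had a log2 fold change of 2.06, the highest of those 19, and was not called. Rnu1b2 had 131, 133 and 181 normalised reads in Ftsj1_DF libraries, against 185, 247 and 187 in WT libraries, and a log2 fold change of -0.48 ± 0.32 in the authors' deposited table (unadjusted p = 0.134). These do not overlap, as was so for 25 of 316 snRNAs at levels of 10 to 900, or 7.91%, with the Ftsj1_DF libraries lower for 13, or 4.11%.

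The 12 features most like Rnu2-10, of the U2 kind that pairs with the branch point, had a summed level of 68614 and a median log2 fold change of 0.16. Gm24950, identical in sequence to Rnu2-10, had a log2 fold change of 0.16 ± 0.28 in the authors' deposited table, against -0.27 ± 0.28 for Rnu2-10 itself. Their levels were 19971 and 880. How reads that match both were divided is not given, so these values may not be separate measurements. The 101 features most like Rnu6, of the U6 kind that forms the catalytic centre, had a median of 0.03. The minor spliceosome, which removes a rare class of introns, had 3 measured members, all above 0 and none called. Rnu12 had a log2 fold change of 0.34 ± 0.40, Rnu11 one of 0.25 ± 0.32 and Rnu4atac one of 0.64 ± 0.40 in the authors' deposited table.

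Gm22540 had the smallest unadjusted p of the snRNAs at a level of 10 or more. It had 10.03, 8.40 and 6.45 normalised reads in Ftsj1_DF libraries, against 22.5, 23.5 and 22.1 in WT libraries, without overlap but with few reads. Its log2 fold change in the authors' deposited table was -1.44 ± 0.64 (unadjusted p = 0.0234, adjusted p = 0.992).

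**Figure D3:**
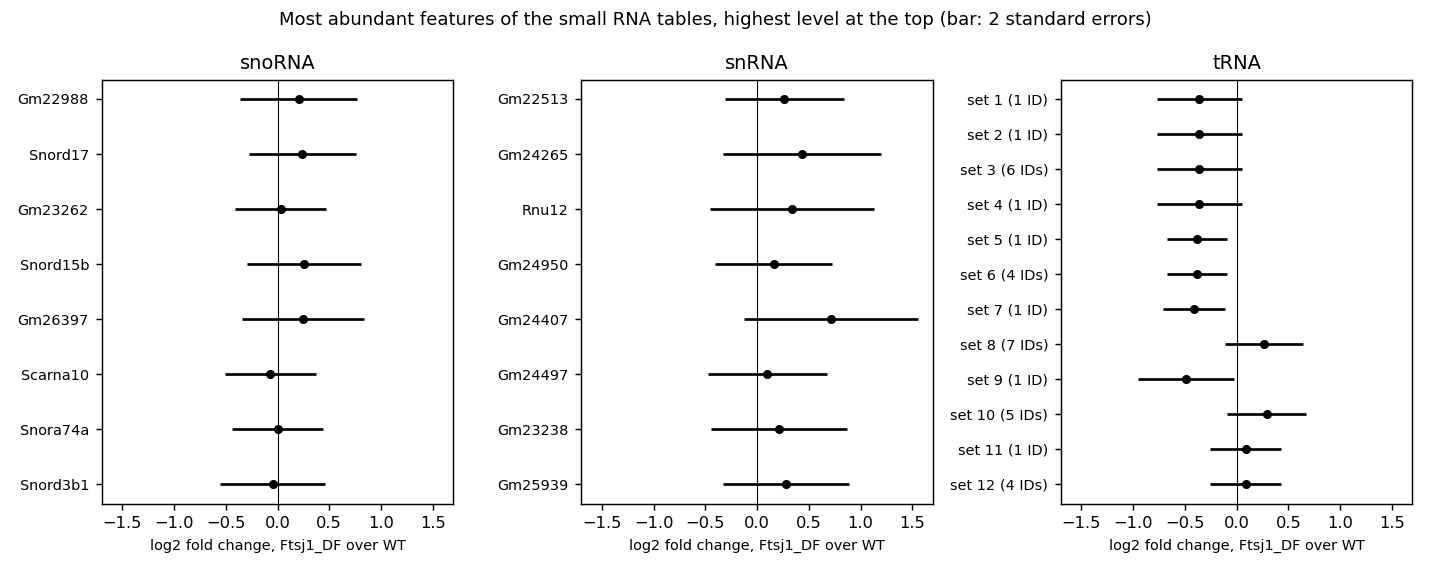
Log2 fold change of Ftsj1_DF over WT (horizontal axis) for the 8 snoRNAs, 8 snRNAs and 12 sets of tRNA identifiers with the highest levels, with bars of 2 standard errors. The bars cross 0 for all 8 snoRNAs and all 8 snRNAs; tRNA identifiers with the same values form 1 set, and set 6, with 4 identifiers, lies at -0.38.

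The tRNA table is the one closest to the enzyme's substrates, and no tRNA feature was called in it, 0% of the 4153 with a p. The smallest adjusted p was 0.375. At an unadjusted p under 0.05 there were 65, or 1.57%, and 24 of these had a level of 10 or more, 1.69% of such features. Features are named by RNAcentral identifiers without an amino acid or anticodon, so known substrates of Ftsj1 could not be picked out, and their methylation was not measured by these libraries. Of the 5537 identifiers, 1370 were listed at 0 and 1421 had a level of 10 or more. These 1421 held 1302 distinct sets of values, since 172 identifiers had the same values as another, and their median log2 fold change was 0.03 with a median SE of 0.51.

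Above a level of 100000 stood 22 identifiers in 8 sets, 7 of which lay below 0. A group of 6 identifiers with 1 set of values held 35.7% of the summed level, at 566375 normalised reads each, and had a log2 fold change of -0.36 ± 0.21 in the authors' deposited table (unadjusted p = 0.0808). Identifiers with the same values may count the same reads, so a share that adds all 6 need not be a share of reads. Another 4 identifiers, at 197459, had one of -0.38 ± 0.14 in the authors' deposited table (unadjusted p = 0.00793), and 7 identifiers at 126103 had one of 0.26 ± 0.19 (unadjusted p = 0.164). Sets of nearly equal level and value may count the same reads, so the 8 sets are not 8 independent results. At a level of 10000 or more, 29 sets had a median log2 fold change of 0.09, and the 4 with an unadjusted p under 0.05 were all below 0. At levels of 1000 to 10000, 0 of 44 sets had an unadjusted p under 0.05, and the values ran from -0.43 to 0.19.

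The tRNA feature with the smallest p, URS00001D64AB_10090, had 48.4, 46.6 and 67.1 normalised reads in Ftsj1_DF libraries, against 148, 65.5 and 271 in WT libraries. The groups overlapped slightly, the lowest WT value being under the highest Ftsj1_DF value. Its log2 fold change in the authors' deposited table was -1.57 ± 0.40 (unadjusted p = 9.02e-05, adjusted p = 0.375). URS00000299DE_10090 had 103, 81.6 and 105 normalised reads in Ftsj1_DF libraries and 187, 97.1 and 308 in WT libraries, which also overlap. Among values above 0, URS000075E2A6_10090 had 20.6, 30.3 and 31.8 normalised reads in Ftsj1_DF libraries, against 6.76, 14.6 and 9.29 in WT libraries. URS00003CE530_10090 had 12.6, 26.8 and 29.4 in Ftsj1_DF libraries, against 9.58, 5.66 and 7.75 in WT libraries. Both were higher in all 3 Ftsj1_DF libraries, and neither passed adjustment (unadjusted p = 0.0124 and 0.0153). Of 1234 tRNA features at levels of 10 to 300, 102 or 8.27% did not overlap between the groups, and 45 of these, or 3.65%, were lower in Ftsj1_DF libraries.

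The fallen lncRNAs were set against the same features in brain, heart, liver and spleen of the same mice. The difference between the kidney log2 fold change and the weighted mean of the other 4 organs was tested for 6201 lncRNAs and passed for 9, or 0.145%. All 9 differences were below 0, and 8 of the 9 lncRNAs were called in kidney. Since the same mice gave all organs, the organs are not independent, and the test treats them as if they were. For snoRNAs, snRNAs and tRNAs the difference passed for 0 of 382, 0 of 339 and 0 of 1411 features. By unadjusted p under 0.05 there were 172 lncRNAs, 1 snoRNA, 3 snRNAs and 21 tRNA features.

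Gm49692 had a kidney difference of -2.16 ± 0.25 (SE; adjusted p = 8.52e-15), with log2 fold changes of 0.14 ± 0.16 in brain and 0.08 ± 0.16 in heart per the authors' deposited tables, at levels of 452 and 884 there. Gm30551 had a kidney difference of -2.0 ± 0.27 (adjusted p = 9.96e-10), and its level in the other organs was at most 107. Gm15895 had a difference of -1.48 ± 0.28 (adjusted p = 0.000142) and Gm28905 one of -0.93 ± 0.18 (adjusted p = 0.000288). Gm10069, at 549130 normalised reads in liver, had a difference of -0.86 ± 0.17 (adjusted p = 0.000376), with a liver value of 0.19 ± 0.23 in the authors' deposited table.

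Cdr1os had a level of 599 in kidney and 614776 in brain, where its log2 fold change was -0.05 ± 0.15 in the authors' deposited table. Its kidney difference was -1.24 ± 0.21 (adjusted p = 1.1e-05), and that of Cdr1 -1.19 ± 0.25 (adjusted p = 0.00108). In heart, at levels of 184 and 54.2, Cdr1os and Cdr1 had log2 fold changes of -0.60 ± 0.32 and -1.03 ± 0.51 per the authors' deposited table (unadjusted p = 0.0605 and 0.0409), and neither was called. Gm53013 had a level of 615603 in brain and a kidney difference of -1.21 ± 0.21 (adjusted p = 1.1e-05).

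The other 7 called lncRNAs did not pass the test of the difference between organs. Gm20400 was called in heart as well, with a log2 fold change of -0.87 ± 0.24 in the authors' deposited table (adjusted p = 0.0427), the only one of the 15 called in another organ. B430119L08Rik had -0.12 ± 0.19 in liver in the authors' deposited table.

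The ninth lncRNA of that test, 9030619P08Rik, was not called in kidney. It had 654, 891 and 836 normalised reads in kidney Ftsj1_DF libraries and 729, 794 and 564 in kidney WT libraries, which overlap, and a log2 fold change of 0.18 ± 0.18 in the authors' deposited table. In liver it had one of 1.77 ± 0.25 in the authors' deposited table (adjusted p = 2.32e-09). The kidney difference was -1.18 ± 0.28 (adjusted p = 0.0123).

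Counts of called features differed between organs. In kidney 0.41% of 3661 lncRNAs with an adjusted p were called, or 15. Heart had 40 called lncRNAs among 5871 (0.681%), liver 37 among 3638 (1.02%), brain 1 among 9249 (0.0108%) and spleen 0 among 9069 (0%). Called tRNA features numbered 0 among 4153 in kidney and 21 among 574 in heart (3.66%), all fallen. Liver had 28 among 466 (6.01%), while brain and spleen had 0 among 4398 and 0 among 4166. The numbers tested differ widely between organs, and the difference between these shares was not tested.

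**Figure D4:**
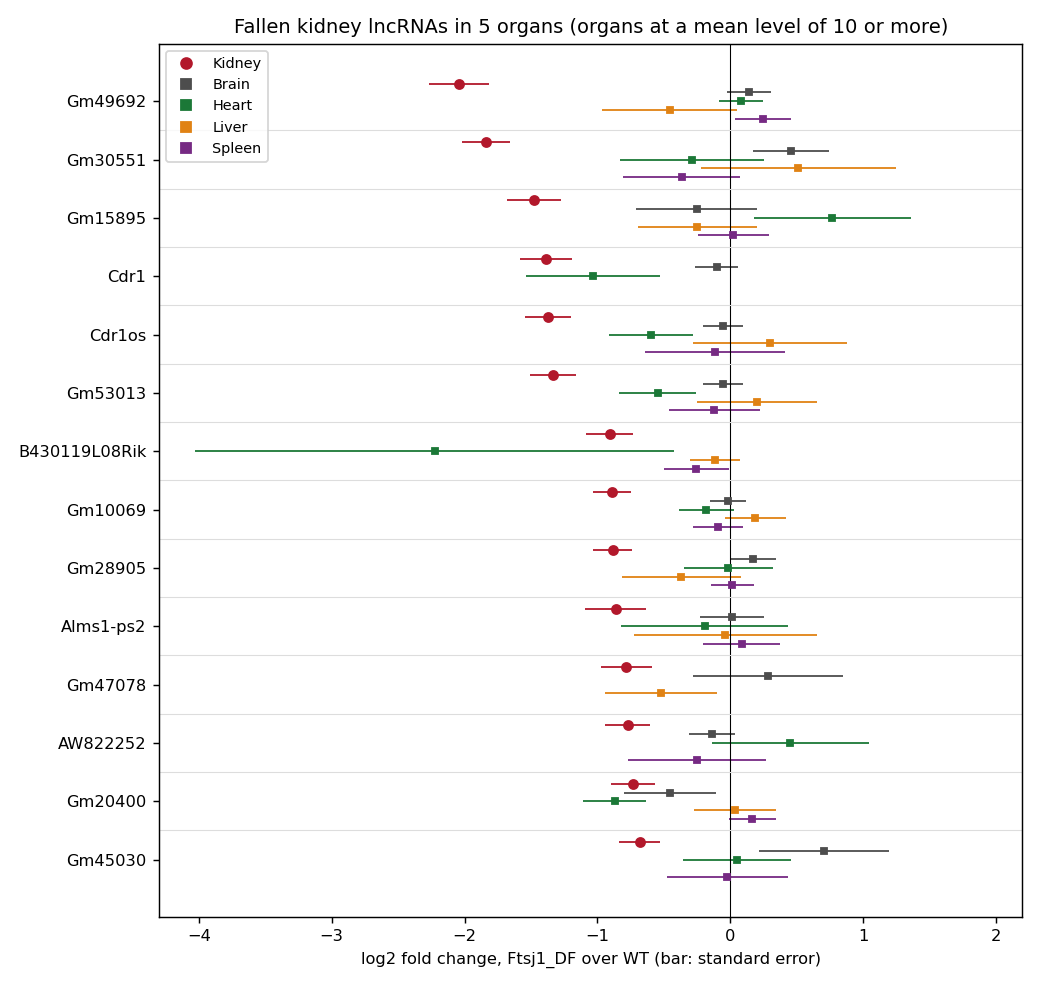
Log2 fold change of Ftsj1_DF over WT (horizontal axis, bars of 1 standard error) of the 14 fallen kidney lncRNAs in kidney (red circles) and in brain, heart, liver and spleen (squares), where the level was 10 or more. The kidney values run from -2.04 to -0.68, while Cdr1os in brain sits at -0.05.

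Poly-A libraries hold RNAs with a poly-A tail, and the called lncRNAs were looked up there, in the same kidneys. All 10040 lncRNA names are in the poly-A table, where 3719 are listed at 0. Of the 15 called lncRNAs, Cdr1, Cdr1os, B430119L08Rik, AW822252 and Gm20400 are listed at 0 in the poly-A table, and 10 were tested, 5 of which were called there. Over all lncRNA names with an adjusted p in the poly-A table, 19 of 3365 or 0.565% were called. The 2 library kinds come from the same mice and are no independent samples.

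Gm30551 had 362, 556 and 511 normalised reads in Ftsj1_DF poly-A libraries, against 1853, 2564 and 1628 in WT poly-A libraries. Its log2 fold change in the authors' deposited poly-A table was -2.09 ± 0.19 (adjusted p = 3.69e-24). Gm49692 had 148, 284 and 175 in Ftsj1_DF poly-A libraries, against 1226, 873 and 991 in WT poly-A libraries, again without overlap. Gm15895 had 275, 406 and 243 in Ftsj1_DF poly-A libraries, against 1299, 1183 and 668 in WT poly-A libraries. Both were called, with log2 fold changes of -2.34 ± 0.22 and -1.76 ± 0.24 per the authors' deposited poly-A table. There Gm28905 fell as well, at -0.97 ± 0.14 on the log2 scale in the authors' deposited poly-A table.

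The difference of the log2 fold changes between library kinds was tested for 3130 lncRNAs and passed for 2, or 0.0639%, while 52 had an unadjusted p under 0.05. Gm10069 was 1 of them. It had 1704, 1212 and 1512 normalised reads in Ftsj1_DF poly-A libraries and 1412, 1636 and 1508 in WT poly-A libraries, which overlap. Its log2 fold change was -0.04 ± 0.14 in the authors' deposited poly-A table, and the difference from the rRNA-depleted value was -0.85 ± 0.20 (adjusted p = 0.033). The other was 1700013N06Rik, with 0.35 ± 0.19 in the rRNA-depleted libraries, where it was not called, and -0.84 ± 0.20 in the poly-A libraries, per the authors' deposited tables (adjusted p of the difference = 0.033).

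Alms1-ps2 had 445, 512 and 284 normalised reads in Ftsj1_DF poly-A libraries, against 309, 490 and 637 in WT poly-A libraries. These overlap, and its difference between library kinds did not pass. Gm45030 had 256, 224 and 205 in Ftsj1_DF poly-A libraries, against 347, 437 and 300 in WT poly-A libraries, without overlap, and an adjusted p of 0.0986 in the authors' deposited poly-A table. Gm47078 had 303, 279 and 231 in Ftsj1_DF poly-A libraries, against 391, 398 and 271 in WT poly-A libraries, which overlap. Gm53013 had 8.72 to 16.5 normalised reads in Ftsj1_DF poly-A libraries and 9.83 to 17.03 in WT poly-A libraries, few for a comparison.

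**Figure D5:**
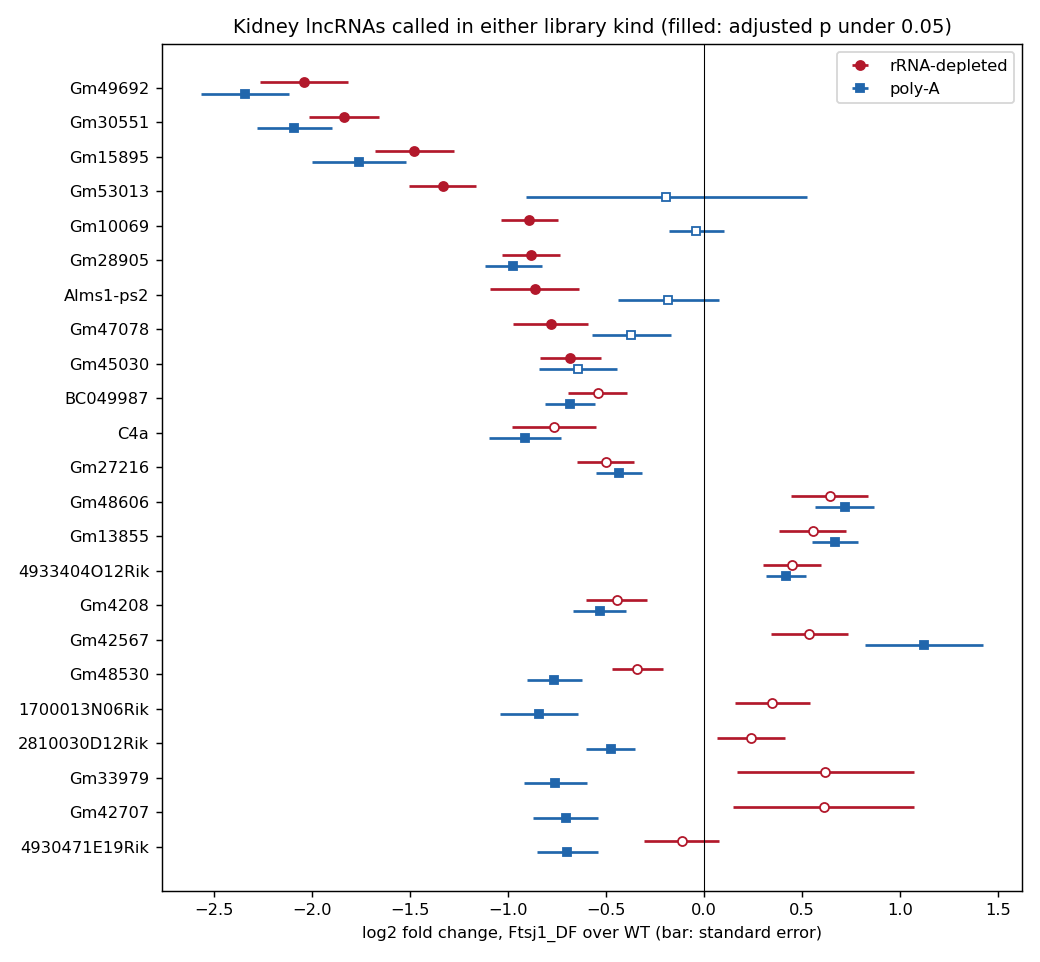
Log2 fold change of Ftsj1_DF over WT (horizontal axis, bars of 1 standard error) in rRNA-depleted (red circles) and poly-A (blue squares) kidney libraries for lncRNAs called in either kind and measured in both, leaving out the 1 that rose in rRNA-depleted libraries; filled symbols have an adjusted p under 0.05. Gm10069 sits at -0.89 in rRNA-depleted and -0.04 in poly-A libraries, and 1700013N06Rik at 0.35 and -0.84.

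Markers of other tissues in the kidney poly-A libraries set a limit on these values. Cyp11a1, of the adrenal gland, had 23.8, 17.5 and 18.7 normalised reads in Ftsj1_DF libraries, against 17.5, 6739 and 14.01 in WT libraries, so that 1 WT library held nearly all of it. The 5 adrenal markers had log2 fold changes of -10.8 to -2.46 per the authors' deposited poly-A table and no p. On the Ftsj1_DF side, the pancreas markers Prss2, Cpa1, Pnlip and Cel had log2 fold changes of 7.91 to 8.31 per the authors' deposited poly-A table, at levels of 557 to 1114, and no p, while the fifth, Cela1, had one of 0.20 and was not called. Of the neutrophil markers S100a8 and S100a9 rose, of 5 measured, with a median of 1.17, and of the B cell markers Jchain fell. With 1 library left out, these calls were lost (unadjusted p above 0.000492, the largest among the calls of that table) in 5 of 6 fits for S100a8 (every one but that without the second Ftsj1_DF library), without the first Ftsj1_DF or the second WT library for S100a9, and without the first Ftsj1_DF or the third WT library for Jchain. The log2 fold changes ran from 1.02 to 1.59 for S100a8, from 0.88 to 1.35 for S100a9 and from -0.9997 to -0.639 for Jchain over these fits, so that none changed direction. Summed over the 5 neutrophil markers, the Ftsj1_DF poly-A libraries had 804 to 1132 normalised reads, against 570 to 577 in the WT poly-A libraries, without overlap. Summed over the 4 measured B cell markers, with Ms4a1 listed at 0, the Ftsj1_DF poly-A libraries had 1845 to 2348 normalised reads, against 2431 to 3780 in the WT poly-A libraries. Their part in the lncRNA results was not tested.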

How the data were processed

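RNA of whole kidney of 3 Ftsj1_DF and 3 WT mice was sequenced after rRNA depletion with a stranded total RNA kit, per the labels' protocols. The submitters' processing notes name GRCm39, featureCounts, Subread 2.0.3 and DESeq2; the sources used here give neither the annotation nor the strand setting nor the handling of reads with several places. Each deposited table compares the genotypes and holds no value per library: the mean signal over 6 libraries (a mean of normalised counts, which the authors made with DESeq2), the authors' log2 fold change with its standard error, the authors' Wald test score, and their p-value, deposited with and without adjustment. The sign of Ftsj1 in the poly-A table shows that fold changes are Ftsj1_DF over WT. Replicates are separate mice.

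Whole reads per library were worked out from the 15-digit means with Python 3.11.15, numpy 2.4.6 and scipy 1.17.1. A mean of normalised counts is a sum of whole reads, each worth a fixed amount in its library. Combinations of whole reads that gave the deposited mean were refitted with a negative binomial model, and kept where the refit gave the deposited fold change and standard error. Exactly 1 combination was kept for 4553 of 4553 lncRNAs, 349 of 349 snoRNAs and 316 of 316 snRNAs at levels of 10 to 900, and for 1234 of 1234 tRNA features at levels of 10 to 300. Named features were tried up to a level of 3000. On 400 simulated lncRNAs, 400 were recovered correctly. The simulation was given the exact size factors and used lncRNA levels of 10 to 900 with a low dispersion. It therefore did not try the finding of size factors, higher levels, the more dispersed snRNA and tRNA features or the poly-A libraries. These counts show counting and replicate error together, and size factors stand for depth, since library totals are not given.

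Calls are the authors' (adjusted p under 0.05 by Benjamini-Hochberg, as deposited). Differences between organs and between library kinds were tested with a two-sided z of log2 fold changes over their standard errors. Features at a level of 10 or more were taken, with Benjamini-Hochberg adjustment. Simulated on 6201 lncRNAs, the organ test found 81 of 100 differences of 1 log2 unit and 99 of 100 of 2, with 10 false calls. The simulated differences were placed only at levels of 100 or more, so these shares do not hold for lower levels. The simulated organs were independent, unlike organs of the same mice. The members and lists were chosen with earlier results of these data known. Named were up to 15 called features per direction, the 5 smallest p where fewer than 3 passed, the 8 highest levels, up to 4 members per list and up to 5 features by the organ test; 4 further features that passed the organ test, the neighbours and the lncRNAs beside the named rule were chosen after their values were seen. The 1 lncRNA that rose is counted, and its values are not reported here. Entries with an empty name (0.0000465% of the lncRNA level) were left out. Names matched GENCODE M21 (GRCm38) for 92.9% of lncRNAs, 92.8% of snoRNAs and 85.5% of snRNAs. Sequences are from GRCm38 and RefSeq, and snRNA identities from a global alignment of the full sequences in Python.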

Additional observations from a re-analysis of the deposited data

Results flagged for a closer look

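For 9 lncRNAs the kidney log2 fold change differed from the weighted mean of brain, heart, liver and spleen after adjustment over 6201 lncRNAs. The differences, kidney minus other organs on the log2 scale, were -2.16 for Gm49692, -2.0 for Gm30551, -1.48 for Gm15895, -1.24 for Cdr1os, -1.21 for Gm53013, -1.19 for Cdr1, -1.18 for 9030619P08Rik, -0.93 for Gm28905 and -0.86 for Gm10069. Of these, 9030619P08Rik differed through a high value in liver and the other 8 were fallen in kidney. The organs came from the same mice, which the test does not take into account.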

How the results depend on the processing

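With a threshold of 0.1 in place of 0.05, 23 kidney lncRNAs were called, 4 risen and 19 fallen, in place of 15. Adjustment over every lncRNA with a p, over the 4 tables together or over levels of 10 or more gave 16 calls each, without Alms1-ps2 and with Gm43189 and Gm48279, and centring fold changes on the table's median gave 17. No snoRNA, snRNA or tRNA feature was called under these adjustments or at 0.1. With an unweighted mean of the other organs, 6 lncRNAs in place of 9 passed the organ test (9030619P08Rik, Cdr1 and Gm28905 did not), and with a level of 50 or more 10 passed; the test between library kinds gave 2 at that level. Leaving out each library in turn was possible for 12 called lncRNAs, with the dispersion held at its value in all 6 libraries. None of the 72 fits changed direction, no value moved by more than 0.295, and 8 lncRNAs stayed under the unadjusted p of 0.00014, the largest among the 15 calls. The other 4 did not stay under it in every fit. Gm47078 (-0.8603 to -0.7378) stayed under it only without the third WT library. AW822252 (-0.8617 to -0.5986) lost it without the third Ftsj1_DF or the second WT library, and Gm45030 (-0.7766 to -0.5958) without the third Ftsj1_DF, the first WT or the second WT library. Counts of calls without a library were not run, since only part of each table was recovered. No paired analysis was possible because the tables hold no value tied to a mouse and the mouse numbers are not shared between genotypes. Precision was lowest for tRNA and snRNA features, with median standard errors of 0.51 and 0.53 at levels of 10 or more. Values well beyond 1 log2 unit did not pass adjustment there. URS00001D64AB_10090, at -1.57 ± 0.40, had an adjusted p of 0.375 in the DESeq2 test, and Gm22540, at -1.44 ± 0.64, had 0.992. The absence of calls in these classes therefore does not show that their features were unchanged.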

Other observations

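Beside the 5 lncRNAs called in both library kinds, 14 were called in kidney poly-A libraries and not in rRNA-depleted ones, a difference between the kinds that passed its own test only for 1700013N06Rik. BC049987 and C4a fell in poly-A libraries, with log2 fold changes of -0.68 ± 0.13 and -0.91 ± 0.18 per the authors' deposited poly-A table, and had -0.54 ± 0.15 and -0.77 ± 0.21 in the authors' deposited rRNA-depleted table (adjusted p = 0.0574 and 0.0632). Gm13855 and Gm48606 rose in poly-A libraries, with 0.67 ± 0.12 and 0.72 ± 0.15 in the authors' deposited poly-A table, and had 0.55 ± 0.17 and 0.64 ± 0.20 in the authors' deposited rRNA-depleted table. Gm33979 and Gm42707 fell in poly-A libraries, with -0.76 ± 0.16 and -0.71 ± 0.17 in the authors' deposited poly-A table, and had 0.62 ± 0.45 and 0.61 ± 0.46 in the authors' deposited rRNA-depleted table. The difference between the kinds had an unadjusted p of 0.00413 for Gm33979 and 0.00732 for Gm42707 and did not pass adjustment.

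In 7 of the 4553 recovered lncRNAs, 1 library held at least 50% of the level summed over libraries. Gm28382 had 0 reads in each of the 3 Ftsj1_DF libraries, against 6, 78 and 2 reads in the WT libraries. Hand2os1, transcribed beside the transcription factor gene Hand2, had 12.8, 26.9 and 8.49 normalised reads in Ftsj1_DF libraries and 7.55, 127 and 15.9 in WT libraries. Gm28294 had 10.8, 16.5 and 14.6 in Ftsj1_DF libraries and 9.88, 85.9 and 7.94 in WT libraries. For these 3 the same WT library, the second in depth, held the highest value. Gm32693, 4930434J06Rik and Gm17749 had their highest value in the second Ftsj1_DF library, with 247, 97.1 and 49.6 normalised reads there. Mir124-2hg, a host of the neuronal microRNA miR-124, had 1.963, 2.07 and 2.43 normalised reads in Ftsj1_DF libraries, against 4.07, 18.7 and 38.1 in WT libraries, with an unadjusted p of 0.000831. None of the 7 was called.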
